A study of Mus musculus with 12 samples.

Results

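A set of genes made by monocytes and macrophages, 8 of 18193 genes with a single symbol on the array, were followed through mouse bone marrow cultures that carried different forms of the homeodomain protein MEIS1. They are Lyz1, Lyz2, Mpeg1, Tgfbi, Gpnmb, F13a1, Igsf6 and Cd68, and they were measured by 14 of the array's 45101 probe sets. The genes were chosen by their known work in these cells and with their low signal in MEIS1 cultures, against the control cultures, already seen on these arrays. Their differences from control are therefore given as a description with no test, and tests are kept to differences between constructs and to other genes.

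All 12 arrays came from bone marrow cells of (C57Bl/6Ly-Pep3b x C3H/HeJ) F1 mice that had received 5-fluorouracil. Every culture, control included, carried NUP98-HOXD13, a leukaemia fusion gene, from a first retrovirus (ND13-GFP or ND13pac). The cells were held for 4 weeks in liquid culture with 15% fetal bovine serum and the cytokines hIL-6 (10 ng/ml), mIL-3 (6 ng/ml) and mSCF (100 ng/ml). A second virus was then added by 2 days of growth on irradiated E86 producer cells with protamine sulfate. The 4 groups of 3 arrays differ in that second virus. M33-MEIS1 cultures received MEIS1 joined to M33, a Polycomb protein now named Cbx2, and the labels do not say which portions were joined. MEIS1-deltaHD cultures received MEIS1 without its homeodomain, the DNA-binding portion. MEIS1-WT cultures received wild-type MEIS1, and MIY-ctrl cultures received the YFP vector alone. RNA came from sorted cells. The gate, the age of the mice, the promoter of the vectors and the time from infection to RNA are not stated in the labels. The series record calls the 3 arrays of a group independent experiments and does not say whether they began from separate marrow, so p-values measure the spread between these experiments.

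Monocytes arise in bone marrow from granulocyte-monocyte progenitors and become macrophages, which engulf particles and digest them in lysosomes. Lysozymes cut bacterial cell walls, Mpeg1 forms pores in engulfed bacteria, and Cd68 and Gpnmb are glycoproteins of lysosomes and related membranes. Tgfbi is a secreted matrix protein, F13a1 is the catalytic subunit of the clot-stabilising factor XIII, and Igsf6 is an immunoglobulin-like membrane protein of myeloid cells. In progenitor cultures of this kind, low levels of such genes together with high levels of progenitor genes are a usual sign of cells that have not matured along this line. In RefSeq build GRCm38.p6, Lyz1 is at chr10:117287795-117292868, Lyz2 at chr10:117277541-117282272, Mpeg1 at chr19:12460770-12465285, Tgfbi at chr13:56609586-56639359, Gpnmb at chr6:49036518-49058182, F13a1 at chr13:36867178-37050244, Igsf6 at chr7:121064067-121074581 and Cd68 at chr11:69664213-69666170. In bulk RNA, fewer monocytes and less RNA of these genes per monocyte cannot be told apart.

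Values are array signals in arbitrary units on a linear scale, with the trimmed mean of each array at 100. The median probe set lay between 13.1 and 21.6 on the 12 arrays, so signals near that range are close to background. Arrays of a group correlated at 0.980 to 0.988 over all probe sets, and arrays of different groups at 0.953 to 0.988. The first principal component, with 45.1% of the variance, set the 3 MIY-ctrl arrays apart from the other 9 arrays. On the third, with 7.2%, M33-MEIS1 replicate 3 stood at -44, against -10.3 to 13.5 for the other 11 arrays. Among markers of other cell types, B cell genes were dim, with summed signals of at most 52.1 over 5 genes. The 8 dendritic cell genes summed to 338 to 418 in MEIS1-WT and 187 to 268 in MIY-ctrl cultures. They summed to 116 to 168 in M33-MEIS1 and 136 to 161 in MEIS1-deltaHD cultures. Among them Flt3 was not dim, with mean signals of 84.4 in M33-MEIS1, 117 in MEIS1-deltaHD, 331 in MEIS1-WT and 158 in MIY-ctrl cultures. Fibroblast genes, counted because the producer cells are a fibroblast line, summed to 326 to 342 in M33-MEIS1, 316 to 380 in MEIS1-deltaHD, 378 to 438 in MEIS1-WT and 532 to 642 in MIY-ctrl cultures over 11 genes. Of these, Col1a1, Col3a1, Loxl1, Lum, Pdgfra and Postn were below the array median on every array of each group. Against control, 1 of 7 tested fibroblast genes was lower with M33-MEIS1, 2 with MEIS1-deltaHD and 2 with MEIS1-WT. The shares of all probe sets called lower were 17.1%, 20.8% and 17.8% in the same order. Pdgfrb was lower with each construct as deposited, but after median scaling 0 fibroblast genes were called lower with MEIS1-WT. Its mean signals were 139 in M33-MEIS1, 162 in MEIS1-deltaHD, 189 in MEIS1-WT and 315 in MIY-ctrl cultures. Erythroid genes summed to 32.7 to 84.2 on the 12 arrays over 5 genes, and 0 of 3 erythroid and 0 of 1 B cell genes tested by limma were called in any comparison as deposited (1 with an unadjusted p under 0.05, Klf1 between M33-MEIS1 and MEIS1-WT). Of 4 dendritic cell genes tested, 1 was lower with M33-MEIS1, 2 were lower with MEIS1-deltaHD (0 after median scaling or quantile normalization) and 1 was higher with MEIS1-WT, the cytokine receptor gene Flt3 by 1.00. What part such cells have in the results was not tested.

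The lysozymes stepped down through the 3 construct groups. Lyz2, the lysozyme of macrophages and granulocytes, gave signals of 1327, 1241 and 1467 in the M33-MEIS1 cultures, 621, 613 and 655 in MEIS1-deltaHD, 126, 101 and 107 in MEIS1-WT and 5307, 5527 and 5339 in MIY-ctrl cultures. No 2 groups overlapped. The M33-MEIS1 cultures held 24.9% ± 2.12 of the control mean, the MEIS1-deltaHD cultures 11.7% ± 0.417 and the MEIS1-WT cultures 2.07% ± 0.242 (SD, n = 3 each). On the log2(signal + 16) scale, on which all differences below are given with the standard error (SE) of the fit, Lyz2 differed from MIY-ctrl by -1.99 ± 0.0822 in M33-MEIS1, -3.07 in MEIS1-deltaHD and -5.41 in MEIS1-WT.

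Lyz1, the lysozyme of the small intestine's Paneth cells, is a neighbour and close copy of Lyz2, and reads of one gene's probes can include RNA of the other. Their windows from 250 bases before to 50 after the RefSeq gene start (build GRCm38.p6, minus strand, Lyz1 at chr10:117292819-117293118 and Lyz2 at chr10:117282223-117282522) match at 201 of 300 positions, or 67%, when laid side by side from their first base. They are shown as the start regions of 2 neighbouring copies whose signals stepped down in the same order. Probe sequences were not used here, so whether the Lyz1 probes also match Lyz2 RNA was not checked, and the windows do not bear on that. Capitals mark the longest identical run, 86 bases at positions 201 to 286.
Lyz1: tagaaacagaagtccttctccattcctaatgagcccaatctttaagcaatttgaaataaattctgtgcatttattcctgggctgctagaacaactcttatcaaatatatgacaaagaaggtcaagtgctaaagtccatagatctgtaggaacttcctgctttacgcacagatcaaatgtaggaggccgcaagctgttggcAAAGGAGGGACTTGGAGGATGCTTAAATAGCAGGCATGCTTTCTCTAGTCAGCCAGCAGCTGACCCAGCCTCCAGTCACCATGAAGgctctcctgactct
Lyz2: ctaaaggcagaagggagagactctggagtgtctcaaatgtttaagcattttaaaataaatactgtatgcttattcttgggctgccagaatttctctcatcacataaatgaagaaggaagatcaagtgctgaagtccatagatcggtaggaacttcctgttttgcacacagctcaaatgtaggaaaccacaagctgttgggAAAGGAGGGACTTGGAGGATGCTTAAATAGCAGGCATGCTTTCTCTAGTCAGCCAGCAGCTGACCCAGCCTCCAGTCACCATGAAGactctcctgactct

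The 3 Lyz1 probe sets did not tell the same story. The probe set 1436996_x_at read 2634, 2458 and 3168 in M33-MEIS1, 1234, 1344 and 1421 in MEIS1-deltaHD, 263, 211 and 252 in MEIS1-WT and 7894, 7892 and 7571 in MIY-ctrl cultures, in the same order as Lyz2 and with no overlap. The probe set 1439426_x_at read 1430, 1305 and 1541 in M33-MEIS1, 215, 277 and 447 in MEIS1-deltaHD, 68.7, 45.7 and 63.2 in MEIS1-WT and 7473, 7329 and 7029 in MIY-ctrl cultures. It kept the order with a wider gap: the MEIS1-deltaHD cultures held 4.30% ± 1.65 of the control mean by this probe set, and 17.1% ± 1.21 by 1436996_x_at (SD, n = 3). The third, 1450822_at, read at most 14.4 in the 9 construct arrays and 20.1, 25 and 9.77 in the MIY-ctrl arrays, where all groups overlapped near background. In this array's naming, the ending x_at marks probe sets with probes that can match other transcripts. Levels given for Lyz1 are therefore uncertain.

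**Figure D1:**
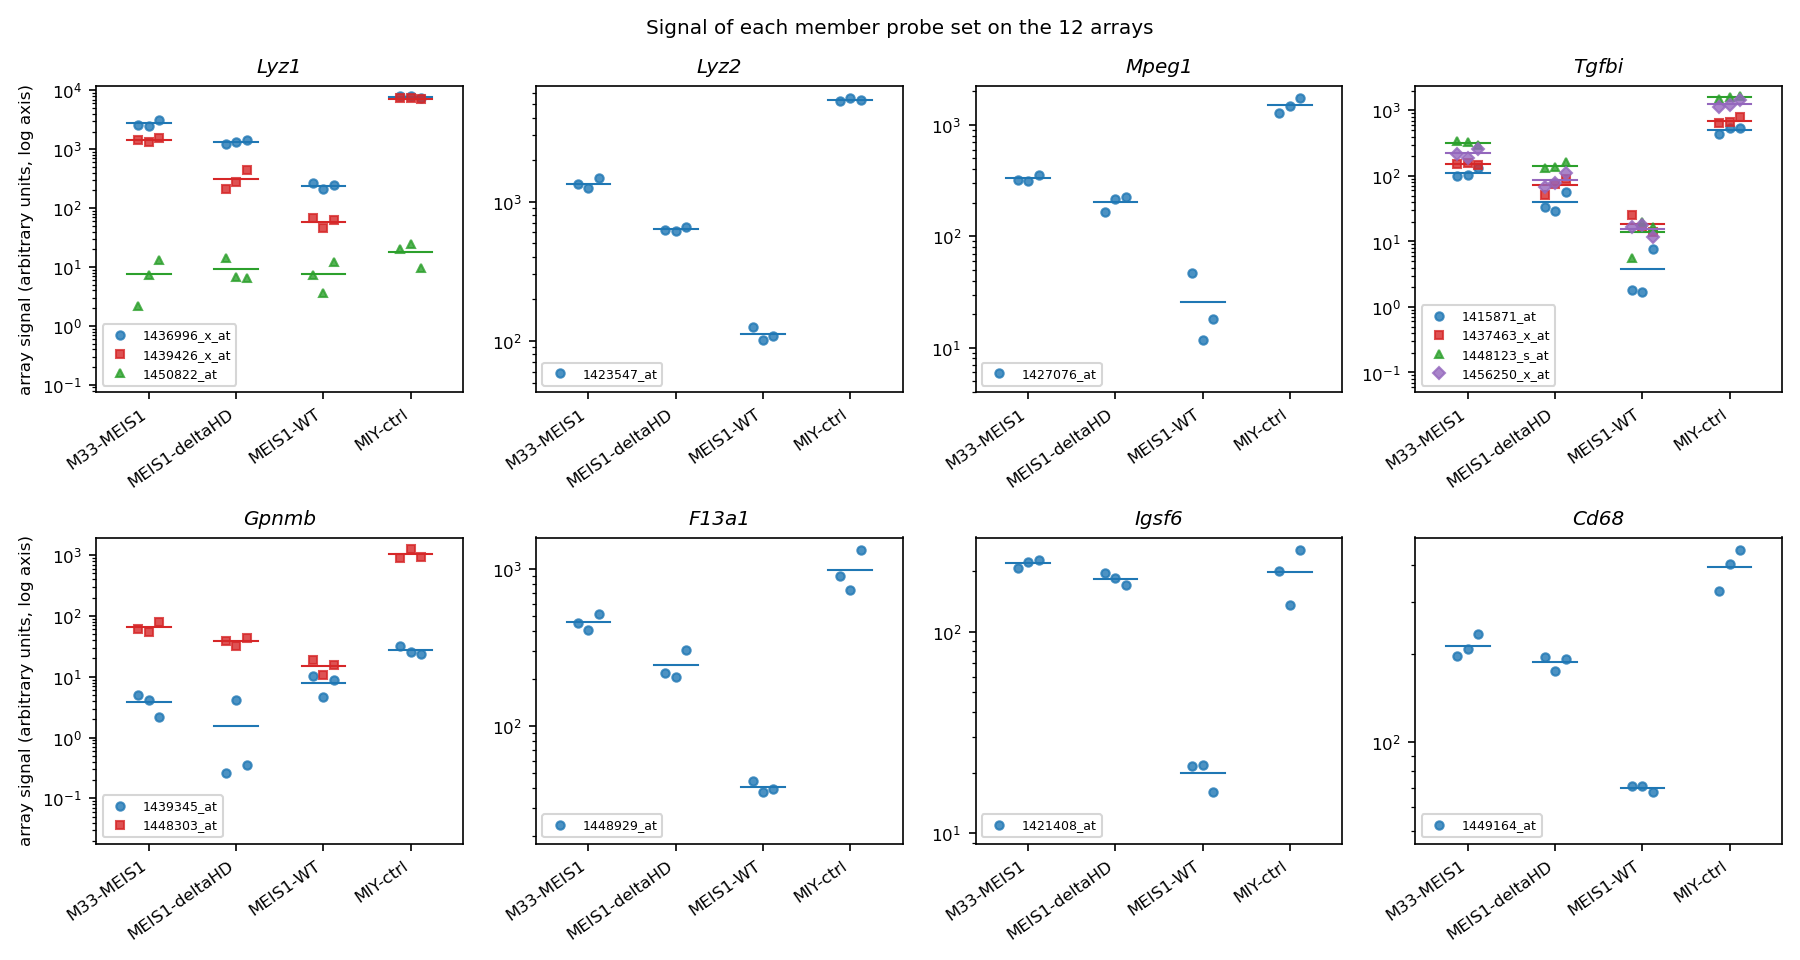
Signal of each probe set of the 8 genes (arbitrary units, log axis) on the 12 arrays, 3 per group, with points for arrays, lines for group means and symbols for probe sets. Apart from the dim probe sets 1450822_at and 1439345_at, the points step down through M33-MEIS1, MEIS1-deltaHD and MEIS1-WT cultures, and for Igsf6 the M33-MEIS1 and MEIS1-deltaHD cultures lie within the range of the MIY-ctrl cultures.

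Mpeg1, which encodes the macrophage pore-forming protein perforin-2, followed the lysozymes. Its probe set 1427076_at read 323, 311 and 359 in M33-MEIS1, 164, 217 and 226 in MEIS1-deltaHD, 47.3, 11.7 and 18.3 in MEIS1-WT and 1286, 1485 and 1743 in MIY-ctrl cultures. The groups were apart from each other, and 1 of the 3 MEIS1-WT arrays was below its array's median. The cultures held 22.0% ± 1.66 of the control mean with M33-MEIS1, 13.5% ± 2.23 with MEIS1-deltaHD and 1.71% ± 1.26 with MEIS1-WT (SD, n = 3 each).

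Tgfbi, a matrix protein induced by TGF-beta and abundant in monocytes, had 4 probe sets, and all of them gave the same order with no overlap. The brightest, 1448123_s_at, read 341, 330 and 295 in M33-MEIS1, 130, 136 and 162 in MEIS1-deltaHD, 5.57, 19.5 and 16.5 in MEIS1-WT and 1492, 1578 and 1674 in MIY-ctrl cultures. Across the 4 probe sets the M33-MEIS1 cultures held 17.6% to 21.8% of the control mean, the MEIS1-deltaHD cultures 6.80% to 10.3% and the MEIS1-WT cultures 0.740% to 2.67%. The MEIS1-WT signal was close to background, so its share of control is an approximate one. By 1415871_at all 3 MEIS1-WT arrays were below the array median.

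F13a1, a transglutaminase subunit made by monocytes and megakaryocytes, kept more of its signal. It read 450, 411 and 517 in M33-MEIS1, 218, 204 and 305 in MEIS1-deltaHD, 44.6, 38.1 and 39.3 in MEIS1-WT and 905, 733 and 1326 in MIY-ctrl cultures. The groups did not overlap, though the control arrays varied more than for the lysozymes. The M33-MEIS1 cultures held 46.5% ± 5.45 of the control mean, the MEIS1-deltaHD cultures 24.5% ± 5.50 and the MEIS1-WT cultures 4.12% ± 0.347 (SD, n = 3 each).

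Gpnmb, a glycoprotein of lysosomes and melanosomes that is high in mature macrophages, had the smallest share of its control signal among the 8 genes in both M33-MEIS1 and MEIS1-deltaHD cultures. Its bright probe set 1448303_at read 60.9, 53.8 and 80.4 in M33-MEIS1, 38.3, 32.5 and 43.3 in MEIS1-deltaHD, 18.7, 10.9 and 15.9 in MEIS1-WT and 895, 1278 and 936 in MIY-ctrl cultures. These are 6.27% ± 1.33, 3.67% ± 0.523 and 1.46% ± 0.384 of the control mean for the M33-MEIS1, MEIS1-deltaHD and MEIS1-WT cultures (SD, n = 3 each). The second probe set, 1439345_at, was dim: it read 32.2, 25.7 and 24.1 in MIY-ctrl cultures and at most 10.2 on the 9 construct arrays, which were all below the array median.

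Cd68, the membrane glycoprotein of macrophage lysosomes that is used to stain these cells, differed less between groups. It read 197, 207 and 233 in M33-MEIS1, 195, 174 and 193 in MEIS1-deltaHD, 70.8, 70.9 and 67.9 in MEIS1-WT and 327, 404 and 453 in MIY-ctrl cultures. It stayed at 53.8% ± 4.70 of the control mean with M33-MEIS1, where F13a1 held 46.5% ± 5.45. The Cd68 shares were 47.5% ± 2.92 with MEIS1-deltaHD and 17.7% ± 0.432 with MEIS1-WT (SD, n = 3 each).

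Igsf6 departed from the rest. It read 207, 222 and 227 in M33-MEIS1, 195, 184 and 170 in MEIS1-deltaHD, 21.6, 21.9 and 16.1 in MEIS1-WT and 200, 135 and 256 in MIY-ctrl cultures. All 6 arrays with M33-MEIS1 or MEIS1-deltaHD lay within the range of the control arrays, and the MEIS1-WT arrays lay far below it. Its differences from control were 0.18 ± 0.149 in M33-MEIS1, -0.06 in MEIS1-deltaHD and -2.53 in MEIS1-WT. The first pair became 0.51 and 0.40 with arrays scaled to 1 median, and 0.22 and -0.01 after quantile normalization, so the sign for MEIS1-deltaHD depends on the scaling.

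By the brightest probe set of each gene, the median share of the control signal over the 8 genes was 30.2% in M33-MEIS1, 15.3% in MEIS1-deltaHD and 2.59% in MEIS1-WT cultures. The lowest and highest shares were 6.27% for Gpnmb and 111% for Igsf6 with M33-MEIS1, 3.67% for Gpnmb and 92.9% for Igsf6 with MEIS1-deltaHD, and 0.876% for Tgfbi and 17.7% for Cd68 with MEIS1-WT. With MEIS1-WT, Tgfbi and Gpnmb were near the array median, so which of them is lowest cannot be told. All 3 construct arrays lay below all 3 control arrays for 12 of 14 probe sets with M33-MEIS1, 12 of 14 with MEIS1-deltaHD and 13 of 14 with MEIS1-WT. Among all 31762 probe sets tested, that held for 24.3%, 29.8% and 25.2% of them in the same order of constructs. Since the genes were chosen with this contrast known, nothing is read from these counts.

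**Figure D2:**
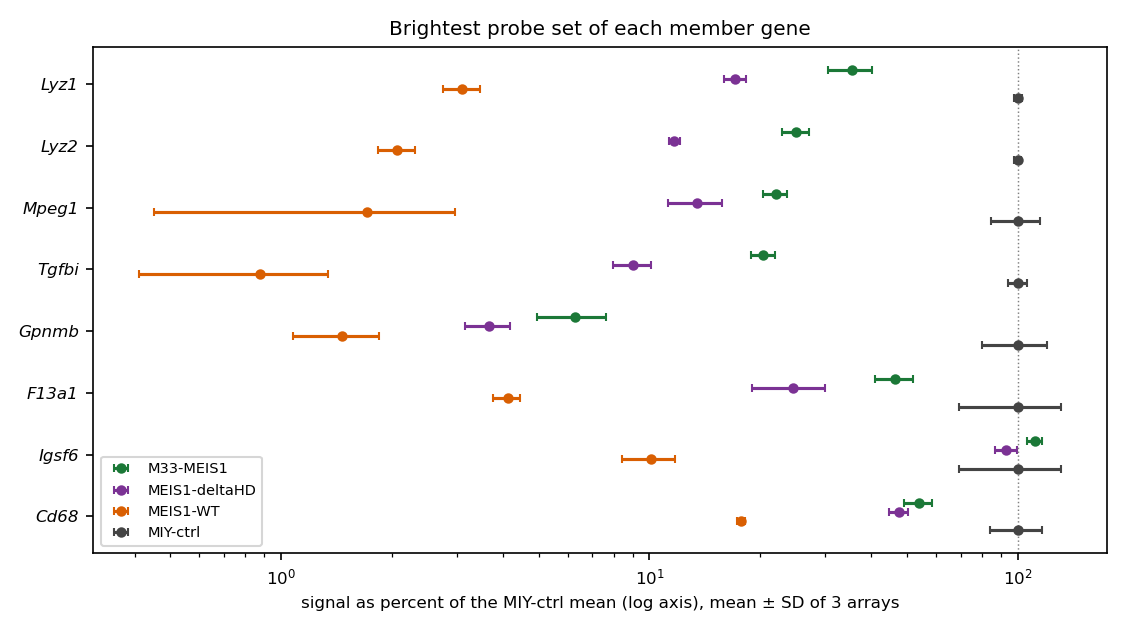
Signal of the brightest probe set of each gene as a percent of the MIY-ctrl mean (log axis), as mean ± SD of 3 arrays per group. The MEIS1-WT points run from 0.876% for Tgfbi, whose signal there is near background, to 17.7% for Cd68, and for Igsf6 the M33-MEIS1 and MEIS1-deltaHD points are at 111% and 92.9%.

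The constructs were then compared with each other by limma over all 31762 probe sets, with p-values adjusted over all of them (Benjamini and Hochberg) and a call at an adjusted p under 0.05. This asks whether the 3 MEIS1 forms left different amounts of monocyte gene signal. All 8 genes had signals in the order M33-MEIS1, MEIS1-deltaHD, MEIS1-WT with no overlap between neighbours by at least 1 probe set. For Lyz1 these were the x_at probe sets, which may also read Lyz2 RNA. The order held for 12 of 14 probe sets, and for 1.18% of all probe sets tested. All 3 constructs enter the contrasts with control that were known when the genes were chosen. Earlier results of these arrays were also known then, so no comparison between constructs is independent of that choice, M33-MEIS1 against MEIS1-deltaHD included.

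M33-MEIS1 cultures were called higher than MEIS1-deltaHD cultures for 8 of 14 probe sets, from Lyz1, Lyz2, Tgfbi and F13a1, and lower for 0 of 14. Among all probe sets, 0.438% were called higher and 0.0535% lower in this comparison, 156 in all. Higher probe sets made up 89.1% of those calls, and 78.4% with arrays scaled to 1 median. Lyz2 was higher by 1.07 ± 0.0822 (adjusted p = 3.28e-08), or 2.14 times by the ratio of mean signals. Lyz1 was higher by 1.03 ± 0.091 with 1436996_x_at (adjusted p = 4.40e-07) and by 2.19 ± 0.157 with 1439426_x_at (adjusted p = 1.04e-08), the 2 probe sets differing in size. Both of these Lyz1 probe sets are of the x_at kind and may also read Lyz2 RNA, so Lyz1 may not count as a separate gene. The 4 Tgfbi probe sets were higher by 0.95 to 1.24, with adjusted p from 3.08e-05 to 0.00102.

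F13a1 was higher by 0.89 ± 0.156 in M33-MEIS1 than in MEIS1-deltaHD cultures (adjusted p = 0.00494), a call that other processing removed. The difference was 0.76 (adjusted p = 0.0711) with arrays scaled to 1 median, and without the fit's intensity trend the adjusted p was 0.176. It was 0.0558 without M33-MEIS1 replicate 3, 0.0560 without MEIS1-deltaHD replicate 1 and 0.0685 without MEIS1-deltaHD replicate 2.

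The other 4 genes were not called between these constructs, although their arrays did not overlap. Mpeg1 differed by 0.68 ± 0.190 (adjusted p = 0.142), Gpnmb by 0.57 ± 0.15 with 1448303_at (adjusted p = 0.106), Igsf6 by 0.24 ± 0.149 (adjusted p = 0.616) and Cd68 by 0.17 ± 0.110 (adjusted p = 0.645), all with the higher mean in M33-MEIS1. Mpeg1 was called with an offset of 64 in place of 16 (0.57, adjusted p = 0.0299) and when MEIS1-WT replicate 1 was left out (adjusted p = 0.00815). The dim probe sets 1450822_at and 1439345_at differed by -0.11 ± 0.238 and 0.18 ± 0.205.

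Both M33-MEIS1 and MEIS1-deltaHD cultures were called higher than MEIS1-WT cultures for all 8 genes, by 12 of 14 probe sets in each comparison. The exceptions were Lyz1 1450822_at and Gpnmb 1439345_at, so Lyz1 was counted by its x_at probe sets alone. Among all probe sets, 3.35% were higher and 2.19% lower in M33-MEIS1 than in MEIS1-WT cultures, and 2.41% higher and 2.11% lower in MEIS1-deltaHD than in MEIS1-WT cultures. Of the calls in the second comparison 53.4% were higher, and 76.5% with arrays scaled to 1 median. M33-MEIS1 differed from MEIS1-WT by 3.42 for Lyz2, 3.53 for Tgfbi 1448123_s_at, 3.14 for Mpeg1, 3.06 for F13a1, 2.71 for Igsf6, 1.41 for Cd68 and 1.37 for Gpnmb 1448303_at, with adjusted p of at most 8.81e-07.

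The MEIS1-deltaHD differences from MEIS1-WT were 2.34 for Lyz2, 2.44 for Tgfbi 1448123_s_at, 2.47 for Mpeg1, 2.17 for F13a1, 2.47 for Igsf6, 1.24 for Cd68 and 0.80 for Gpnmb 1448303_at. The adjusted p was at most 5.07e-08 for all of these but Gpnmb (0.00150), whose call was lost with an offset of 64 (0.37, adjusted p = 0.0524). For Igsf6 and Cd68, the differences of M33-MEIS1 and MEIS1-deltaHD from MEIS1-WT were thus many times their SE, and the difference between M33-MEIS1 and MEIS1-deltaHD was below 2 SE.

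**Figure D3:**
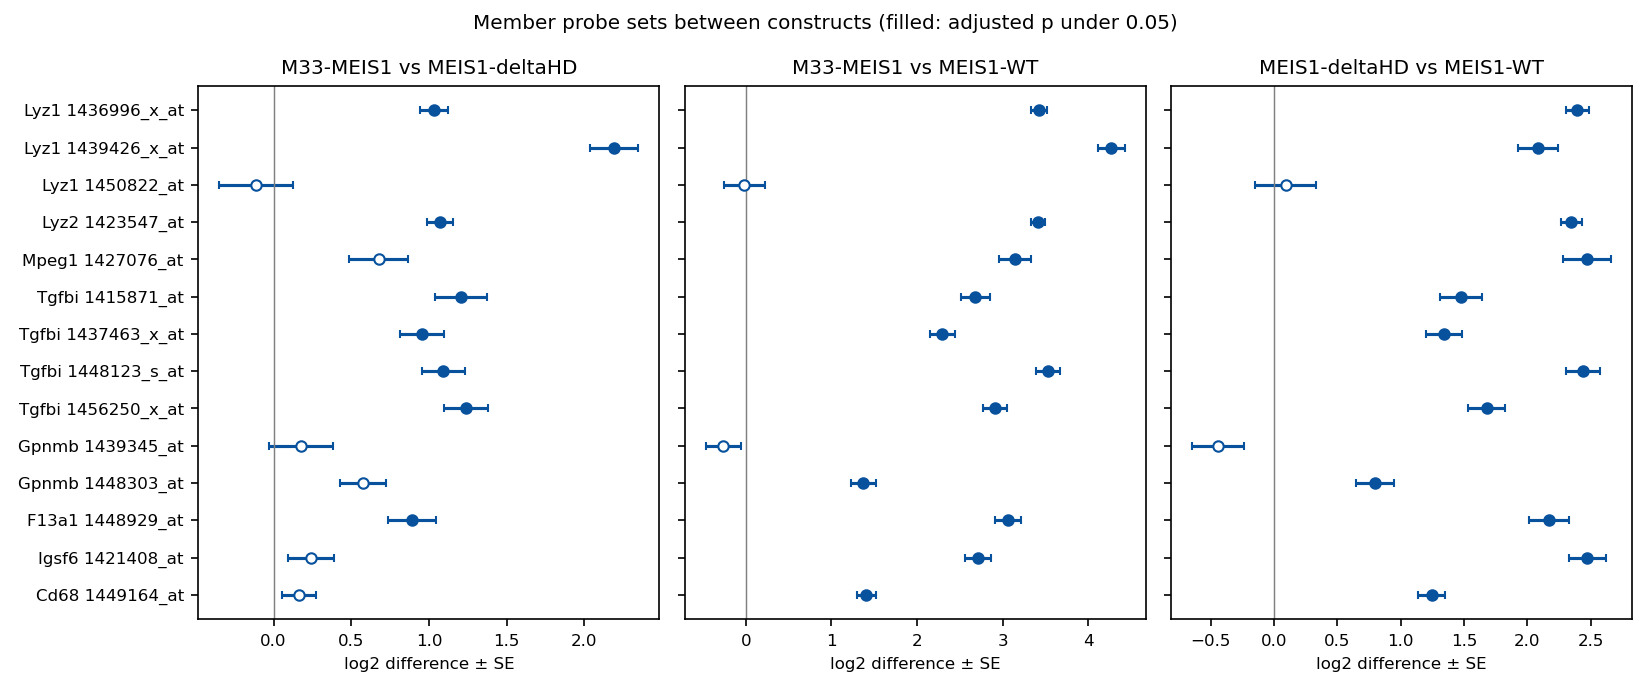
Log2 difference ± SE of each of the 14 probe sets between constructs, first named minus second, with filled points for an adjusted p under 0.05. Filled points number 8 for M33-MEIS1 against MEIS1-deltaHD and 12 in each comparison with MEIS1-WT, and the largest difference between M33-MEIS1 and MEIS1-deltaHD is 2.19 for Lyz1 1439426_x_at.

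Markers of other myeloid cells changed between the same groups. Of 10 mast cell and basophil genes, 6 were higher and 0 lower in M33-MEIS1 than in MEIS1-deltaHD cultures, among them the granule proteases Gzmb by 1.92 and Cma1 by 1.65, and 5 were higher after median scaling. Against control, 4 were higher and 2 lower with M33-MEIS1 (7 and 0 after median scaling), 2 and 7 with MEIS1-deltaHD (3 and 3 after median scaling) and 2 and 7 with MEIS1-WT (2 and 4 after median scaling). Their summed signal was 5242 to 5774 in M33-MEIS1, 2732 to 2997 in MEIS1-deltaHD, 2568 to 2742 in MEIS1-WT and 3711 to 5195 in MIY-ctrl cultures. Of 13 neutrophil genes, 11 were higher and 0 lower in M33-MEIS1 than in MEIS1-WT cultures, and likewise 11 and 0 in MEIS1-deltaHD against MEIS1-WT. The shares of all probe sets were 3.35% higher and 2.19% lower in the first comparison, and 2.41% and 2.11% in the second. Between M33-MEIS1 and MEIS1-deltaHD 1 neutrophil gene was called, the collagenase Mmp8, higher by 1.06 (adjusted p = 1.99e-05). In that comparison 0.438% of all probe sets were higher and 0.0535% lower. The summed neutrophil signal was 25761 to 30082 in M33-MEIS1, 25090 to 27012 in MEIS1-deltaHD, 15676 to 16467 in MEIS1-WT and 19686 to 23817 in MIY-ctrl cultures, so it was not highest in the control cultures. Within that sum, Mpo, Ctsg and Prtn3 had the highest means with M33-MEIS1 (7592, 5946 and 4919). Ltf and Mmp9 were near background there (13.5 and 10.6). Against control, 8 neutrophil genes were higher and 2 lower with M33-MEIS1, and 7 and 2 with MEIS1-deltaHD (9 and 2 each after median scaling). The 2 lower as deposited were Mmp8 (-1.95 and -3.01) and the siderophore-binding Lcn2 (-1.61 and -1.65). With MEIS1-WT 1 was higher and 6 lower (2 and 4 after median scaling). The largest falls with MEIS1-WT were those of Mmp8 (-4.28), Lcn2 (-2.33) and the calprotectin chains S100a8 (-1.52) and S100a9 (-1.21). Among all probe sets, 11.8%, 13.7% and 13.1% were higher and 17.1%, 20.8% and 17.8% lower against control with M33-MEIS1, MEIS1-deltaHD and MEIS1-WT. Lyz2 is made by neutrophils as well as by macrophages. The share of these cells in the lysozyme differences was not tested.

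The genes around the 8 were taken from 5 lists of 80 monocyte and macrophage genes that leave the 8 out, of which 73 were on the array and 64 were tested. Most were lower than control with every construct, and the median was lowest with MEIS1-WT. In M33-MEIS1 cultures 45 of 64 were lower than in MIY-ctrl and 1 higher (median -0.71), in MEIS1-deltaHD cultures 46 lower and 1 higher (median -0.96), and in MEIS1-WT cultures 51 lower and 0 higher (median -1.25). The medians over all probe sets were -0.12, -0.14 and -0.10. The shares of all probe sets called lower were 17.1%, 20.8% and 17.8% and higher 11.8%, 13.7% and 13.1%, in the same order of constructs. With arrays scaled to 1 median the listed genes called lower were 31, 35 and 46 and higher 3, 2 and 1, while of all calls against control 81.9%, 84.3% and 79.1% were then higher, against 40.8%, 39.8% and 42.3% as deposited and 53.6%, 54.5% and 55.0% after quantile normalization. Median scaling moved the median of all probe sets against control up by 0.22, 0.31 and 0.23, and quantile normalization by 0.13, 0.16 and 0.13. Signs of RNA quality moved with the groups. The actin 3'/5' signal ratio was 1.307 to 1.442 in M33-MEIS1, 1.300 to 1.404 in MEIS1-deltaHD, 1.442 to 1.481 in MEIS1-WT and 1.490 to 1.509 in MIY-ctrl cultures. The Gapdh ratio was 0.830 to 0.883 in M33-MEIS1, 0.811 to 0.828 in MEIS1-deltaHD, 0.822 to 0.838 in MEIS1-WT and 0.774 to 0.801 in MIY-ctrl cultures, so the M33-MEIS1 and MEIS1-deltaHD arrays did not overlap. Their part in these results and in those of the 8 genes was not tested. The construct comparisons share the 3 control arrays, and the 8 genes and the lists were drawn from overlapping knowledge of the lineage.

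Surface receptors formed the list that was lowest against control. With M33-MEIS1, MEIS1-deltaHD and MEIS1-WT alike, 12 of 13 tested were lower and 0 higher (medians -1.05, -1.77 and -2.15), or 9, 10 and 12 with arrays scaled to 1 median. Csf1r, the receptor for the monocyte growth factor M-CSF, had a mean signal of 634 in M33-MEIS1, 425 in MEIS1-deltaHD, 32.3 in MEIS1-WT and 1590 in MIY-ctrl cultures, and in MEIS1-WT cultures it fell by 5.06 (adjusted p = 3.58e-21). Other receptors that fell in MEIS1-WT cultures were the beta-glucan receptor Clec7a (-3.35), the chemokine receptor Ccr2 (-2.51) and Ly86, the partner of a Toll-like receptor relative. Ly86 was below the array median on all 3 MEIS1-WT arrays, with a mean of 2.60 against 201 in MIY-ctrl cultures. The size of its fitted difference (-3.53) is therefore set by the offset of 16. Clec7a had a MEIS1-WT mean of 15.4, near the array median, so the size of its difference also depends on the offset. Adgre1, the F4/80 antigen of macrophages, was chosen after its values were seen and had mean signals of 160, 129, 75.6 and 324 in M33-MEIS1, MEIS1-deltaHD, MEIS1-WT and MIY-ctrl cultures.

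Of 16 lysosome and phagosome genes, 14 were lower than control with M33-MEIS1, 15 with MEIS1-deltaHD and 15 with MEIS1-WT, and 0 were higher. After median scaling 11, 10 and 14 were lower in the same order, with medians of -0.49, -0.50 and -0.80 in place of -0.84, -0.999 and -1.17. The protease Ctss had mean signals of 530 in M33-MEIS1, 249 in MEIS1-deltaHD, 57.2 in MEIS1-WT and 2529 in MIY-ctrl cultures, and with MEIS1-WT it fell by 5.12. Other falls were those of Psap, the precursor of the saposins that help break down sphingolipids (-3.09 with MEIS1-WT), the asparaginyl protease Lgmn (-2.93, with a MEIS1-WT mean of 6.53 that is below the array median on all 3 arrays) and cathepsin Ctsl (-2.02). Ctsl had mean signals of 288 in M33-MEIS1, 250 in MEIS1-deltaHD and 238 in MEIS1-WT cultures against 1022 in MIY-ctrl cultures. It was not called between constructs: it differed by 0.19 ± 0.107 between M33-MEIS1 and MEIS1-deltaHD (adjusted p = 0.552), 0.26 between M33-MEIS1 and MEIS1-WT (adjusted p = 0.213) and 0.06 between MEIS1-deltaHD and MEIS1-WT (adjusted p = 0.860).

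Of 14 matrix, adhesion and coagulation genes, 9 were lower than control with each construct and 0 higher. After median scaling 5, 6 and 8 were lower with M33-MEIS1, MEIS1-deltaHD and MEIS1-WT, and 1 was higher, the integrin chain Itgav with MEIS1-WT (0.43, adjusted p = 0.00386). Among those that fell with MEIS1-WT were the coagulation protease F10 (-3.35), the proteoglycan Vcan (-2.85), the transglutaminase Tgm2 (-2.06) and the coagulation protease F7 (-2.01). The MEIS1-WT mean of F7 was 12.4, close to background, so the size of its difference depends on the offset. Of 7 complement and pore-forming genes, 2, 2 and 3 were lower with M33-MEIS1, MEIS1-deltaHD and MEIS1-WT, and 1, 2 and 3 after median scaling. Among all probe sets 17.1%, 20.8% and 17.8% were called lower in the same order, so no fall of this list is read from its counts. Cfp, or properdin, which stabilises the alternative complement pathway, fell by 2.70 with MEIS1-WT, and Cfb, the protease of that pathway, and C8g, a chain of the membrane attack complex, were at -1.78 and -0.79, with signals below the array median on all 3 MEIS1-WT arrays. Of the C1q chains of mature macrophages, C1qa and C1qc were below the array median on all 12 arrays, MIY-ctrl included, and C1qb was called against control with no construct.

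Between M33-MEIS1 and MEIS1-deltaHD cultures, 9 of the 64 listed genes were higher and 0 lower (median 0.23, against 0.01 over all probe sets). They were the receptors Csf1r (0.56), Ccr2 (0.64), Clec7a (0.63) and C3ar1 (0.73), the lysosomal Ctss (1.05) and Psap (0.49), the matrix and clotting genes Vcan (0.88) and F10 (0.80), and Cfp (0.63). With arrays scaled to 1 median 3 were called, Ctss, F10 and Vcan, and 3 without the intensity trend. Without M33-MEIS1 replicate 3, MEIS1-deltaHD replicate 1 or MEIS1-deltaHD replicate 2, 5 were called each time, and without M33-MEIS1 replicate 1, 6 were. Against MEIS1-WT, 34 were higher and 3 lower in M33-MEIS1 cultures, and 24 higher and 3 lower in MEIS1-deltaHD cultures. The 3 lower were Itgav (-0.50 and -0.41), Serpinb2 (-0.944 and -1.495) and Nr4a1 (-0.91 and -0.71). The shares of all probe sets were 3.35% higher and 2.19% lower in the first comparison, and 2.41% and 2.11% in the second.

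**Figure D4:**
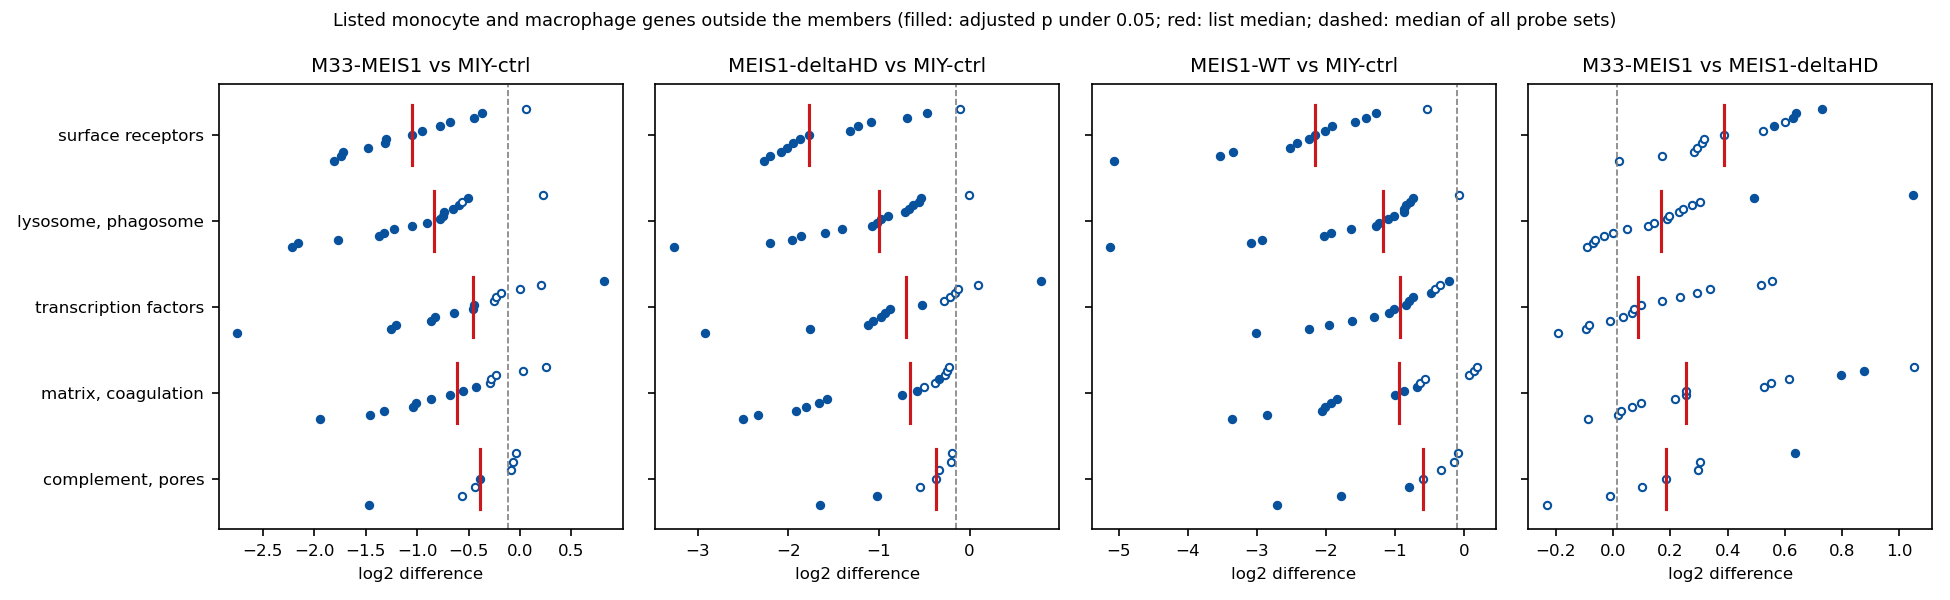
Log2 difference of each listed gene outside the 8, in 5 lists, for each construct against MIY-ctrl and for M33-MEIS1 against MEIS1-deltaHD, with filled points for an adjusted p under 0.05. Red lines mark list medians, which for surface receptors are -1.05, -1.77 and -2.15 against control, and dashed lines mark the median of all probe sets.

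The transcription factors that direct the lineage did not all change in one direction. Of 14 measured, 8 were lower and 1 higher than control with M33-MEIS1, 8 lower and 1 higher with MEIS1-deltaHD, and 12 lower and 0 higher with MEIS1-WT. With arrays scaled to 1 median these counts became 5 and 3, 7 and 2, and 9 and 0. Maf and Klf4 were low with every construct. Klf4 had signals of 32.3, 29.2 and 36.7 in M33-MEIS1, 19.5, 14.8 and 17.1 in MEIS1-deltaHD, 9.34, 7.33 and 6.10 in MEIS1-WT and 95.2, 98 and 94.7 in MIY-ctrl cultures, and Maf was lower at -2.75, -2.92 and -3.01 with M33-MEIS1, MEIS1-deltaHD and MEIS1-WT. Maf had mean signals of 13, 9.38, 7.72 and 182 in M33-MEIS1, MEIS1-deltaHD, MEIS1-WT and MIY-ctrl cultures. On all 3 arrays of MEIS1-deltaHD and of MEIS1-WT it was below the array median, as was Klf4 with MEIS1-WT, so these sizes are set by the offset and no order is read from the Maf differences. Cebpb, a C/EBP factor of activated macrophages, was lower at -0.87, -0.94 and -1.62 in the same order.

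Irf8, which directs progenitors to the monocyte fate, was low in the MEIS1-WT cultures. It read 305, 330 and 384 in M33-MEIS1, 255, 264 and 274 in MEIS1-deltaHD, 68.9, 53.0 and 69.5 in MEIS1-WT and 282, 240 and 359 in MIY-ctrl cultures. It fell by 1.95 with MEIS1-WT (adjusted p = 2.17e-11), and its differences with M33-MEIS1 and MEIS1-deltaHD were 0.21 (adjusted p = 0.225) and -0.13 (adjusted p = 0.458). After median scaling, these became 0.55 (adjusted p = 0.00715) and 0.35 (adjusted p = 0.0805).

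Tfec, a macrophage member of the MiT/TFE factors that control lysosome genes, ran opposite to the lysosomal genes with 2 of the constructs. It read 753, 691 and 684 in M33-MEIS1, 684, 770 and 627 in MEIS1-deltaHD, 199, 171 and 168 in MEIS1-WT and 364, 299 and 563 in MIY-ctrl cultures. It was higher than control by 0.82 with M33-MEIS1 and 0.79 with MEIS1-deltaHD and lower, at -1.08, with MEIS1-WT, with the same directions and calls under quantile normalization and median scaling. Its relatives Mitf and Tfeb differed from control by -0.46 and -0.64 with M33-MEIS1, -0.97 and -0.87 with MEIS1-deltaHD, and -1.31 and -0.42 with MEIS1-WT, all called but Tfeb with MEIS1-WT (adjusted p = 0.0752). With M33-MEIS1, Mitf and Tfeb were at -0.14 and -0.37 after median scaling and at -0.38 and -0.47 after quantile normalization, and were called in neither.

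Spi1, or PU.1, the factor that monocytes and granulocytes depend on, read 431, 459 and 468 in M33-MEIS1, 483, 466 and 422 in MEIS1-deltaHD, 283, 274 and 315 in MEIS1-WT and 540, 438 and 640 in MIY-ctrl cultures. It fell by 0.84 with MEIS1-WT (adjusted p = 1.09e-06), and differed by -0.23 (adjusted p = 0.110) and -0.22 (adjusted p = 0.116) with M33-MEIS1 and MEIS1-deltaHD, which became 0.12 and 0.27 with arrays scaled to 1 median and were called lower, at -0.29 and -0.30, after quantile normalization, so no direction is given for these. Cebpa differed by 0.01, 0.09 and -0.21 from control with M33-MEIS1, MEIS1-deltaHD and MEIS1-WT, the last with an adjusted p of 0.0458, and by 0.35, 0.58 and 0.15 with arrays scaled to 1 median, so no direction is given for it. Gfi1, a repressor that favours neutrophils, was lower at -0.45, -0.52 and -1.01, of which the first pair was not called after median scaling. Runx1 and Zeb2 were lower with MEIS1-WT, at -0.48 (-0.16 and not called after median scaling) and -0.79, and were called with neither M33-MEIS1 nor MEIS1-deltaHD. The early response factors Nr4a1 and Egr2 were lower at -1.25 and -0.83 with M33-MEIS1 and at -1.06 and -1.12 with MEIS1-deltaHD. Egr2 was below the array median on all 3 MEIS1-deltaHD arrays and had a mean of 17.0 with M33-MEIS1. The sizes of these Egr2 differences depend on the offset. Control arrays ranged from 78.2 to 185 for Nr4a1 and from 29.8 to 69.9 for Egr2. With MEIS1-WT, Egr2 fell by 0.74 (a call lost after median scaling, adjusted p = 0.0633) and Nr4a1 differed by -0.35 (adjusted p = 0.169).

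Between M33-MEIS1 and MEIS1-deltaHD 0 of the 14 factors were called by limma, and 3 had an unadjusted p under 0.05. Their differences were 0.56 for Klf4 (adjusted p = 0.141), 0.52 for Mitf (adjusted p = 0.151) and 0.34 for Irf8 (adjusted p = 0.320). Against MEIS1-WT, Irf8 was higher by 2.16 in M33-MEIS1 and by 1.82 in MEIS1-deltaHD cultures, Tfec by 1.90 and 1.86, and Spi1 by 0.61 and 0.62, all with adjusted p of at most 0.000412.

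**Figure D5:**
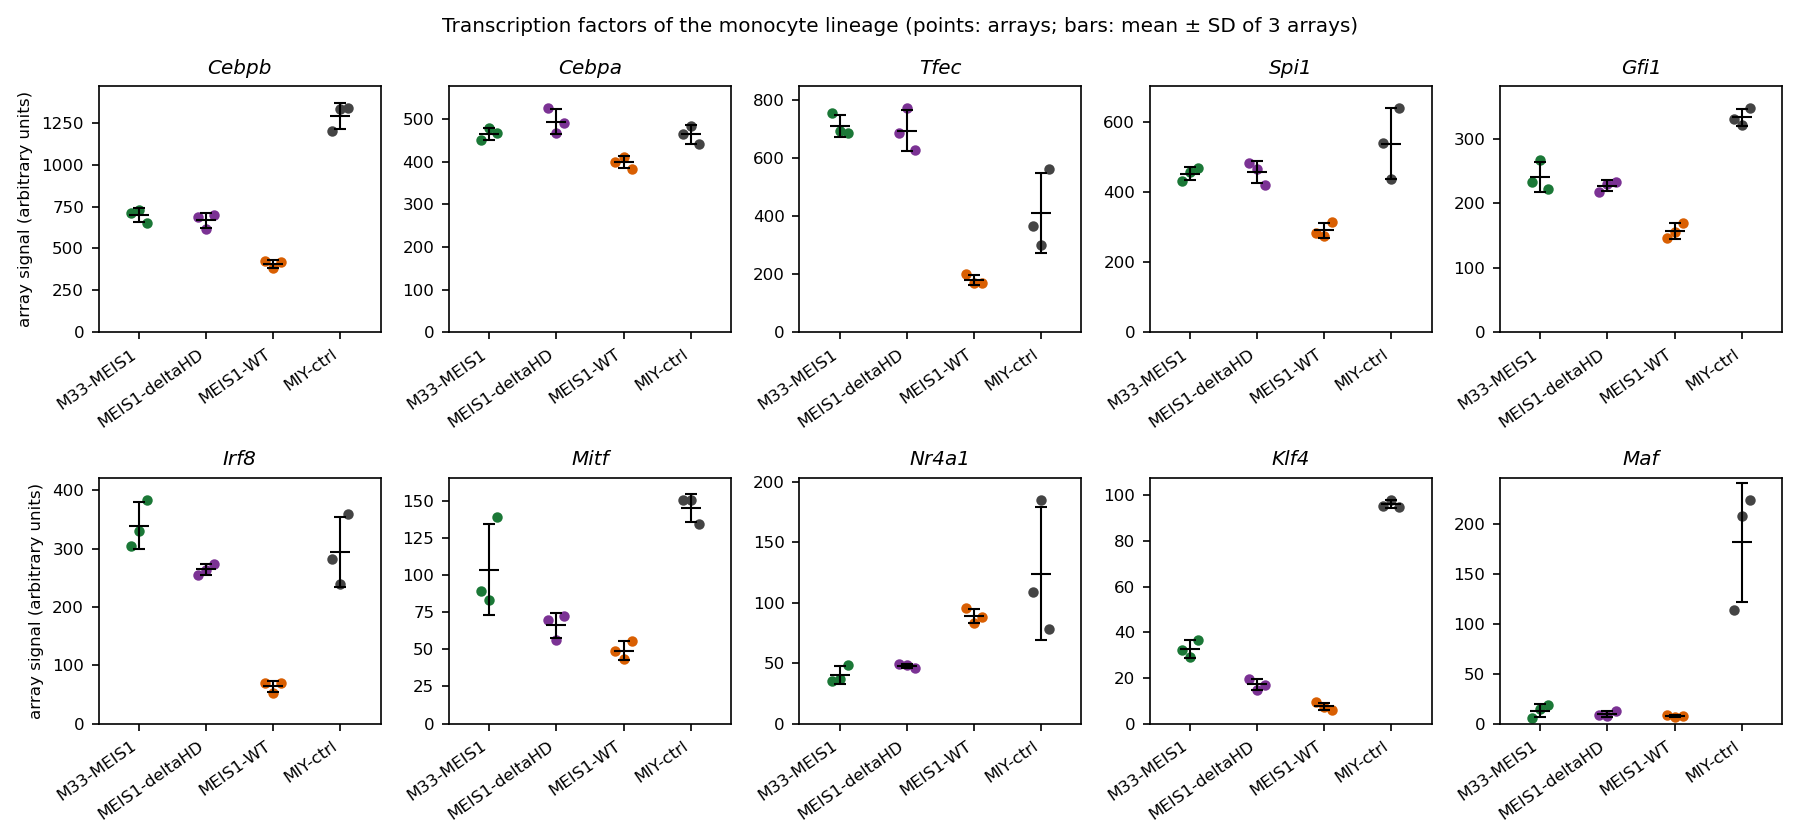
Array signal of 10 of the 14 listed transcription factors (arbitrary units, axis from 0) in the 4 groups, with points for arrays and bars for mean ± SD of 3 arrays. Tfec lies above the MIY-ctrl arrays in M33-MEIS1 and MEIS1-deltaHD cultures and below them in MEIS1-WT cultures, and the Irf8 arrays of MEIS1-WT cultures lie below those of the other 3 groups.

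The promoter windows of the 8 genes, 9 windows of 300 bases in RefSeq because F13a1 has a pair of starts, were read for 6 short motifs on both strands. These were GAGGAAGT (PU.1), TGACAG (MEIS), TGACTCA (AP-1), TTGCGCAA (C/EBP), CACGTG (MiT/TFE E-box) and TCATGTG (MiT/TFE M-box), found in 3.20%, 19.2%, 5.20%, 0.183%, 7.15% and 3.77% of 32851 mouse windows of the same length. Only the windows of F13a1, Gpnmb and Cd68 held a match to any of the 6, and they are printed with the matches in capitals. The upstream F13a1 window (chr13:37050195-37050494, minus strand) held the MEIS letters at 3 places, starting at bases 40, 142 and 227, and the other F13a1 window (chr13:37049164-37049463, minus strand) held the PU.1 letters at base 265. The Gpnmb window (chr6:49036268-49036567, plus strand) held the AP-1 letters at base 259. The Cd68 window (chr11:69666121-69666420, minus strand) held them on the opposite strand, printed as TGAGTCA, at bases 102 and 227. These are matches of letters and not measured binding sites.
F13a1 upstream start: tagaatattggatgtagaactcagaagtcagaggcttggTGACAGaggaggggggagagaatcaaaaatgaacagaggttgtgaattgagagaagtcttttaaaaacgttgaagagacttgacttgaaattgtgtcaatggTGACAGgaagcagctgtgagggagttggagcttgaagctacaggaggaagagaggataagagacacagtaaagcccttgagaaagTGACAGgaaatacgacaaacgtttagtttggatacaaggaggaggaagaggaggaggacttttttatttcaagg
F13a1 other start: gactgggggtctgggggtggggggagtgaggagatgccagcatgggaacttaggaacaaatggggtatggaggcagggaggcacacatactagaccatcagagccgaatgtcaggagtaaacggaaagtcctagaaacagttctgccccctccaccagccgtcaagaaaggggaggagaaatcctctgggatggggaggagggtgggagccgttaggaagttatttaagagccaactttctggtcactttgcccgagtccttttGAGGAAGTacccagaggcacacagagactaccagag
Gpnmb: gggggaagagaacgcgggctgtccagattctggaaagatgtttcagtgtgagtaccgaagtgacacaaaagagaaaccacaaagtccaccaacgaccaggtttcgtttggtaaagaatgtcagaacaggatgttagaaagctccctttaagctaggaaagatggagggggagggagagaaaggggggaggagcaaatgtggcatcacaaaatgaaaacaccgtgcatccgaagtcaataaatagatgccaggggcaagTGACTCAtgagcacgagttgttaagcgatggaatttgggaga
Cd68: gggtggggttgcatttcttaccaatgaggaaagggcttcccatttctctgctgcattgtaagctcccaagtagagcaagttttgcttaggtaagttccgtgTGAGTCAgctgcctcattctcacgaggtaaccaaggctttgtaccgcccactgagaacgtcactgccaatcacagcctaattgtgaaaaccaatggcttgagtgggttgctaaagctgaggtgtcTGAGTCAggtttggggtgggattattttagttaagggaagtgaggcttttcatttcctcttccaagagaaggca

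Other genes shared the profile of the 8. Each gene outside the 8 was correlated with the mean profile of their brightest probe sets (each scaled to an SD of 1 over the arrays), as a description across arrays that fall into groups. Over 12 arrays the highest were Ifitm6, an interferon-induced transmembrane family member (Pearson r = 0.997), Cybb, the NADPH oxidase subunit of phagocytes (0.997), the lysosomal nuclease Pld4 (0.996), F10 (0.994) and Tpd52 (0.993). Ifitm6 had mean signals of 482 in M33-MEIS1, 298 in MEIS1-deltaHD, 33.6 in MEIS1-WT and 1494 in MIY-ctrl cultures. Cybb had means of 304, 220, 22.4 and 1172 in the same order. Over the 9 construct arrays alone the highest were Ifitm6 (0.996), Cfp (0.994), Klrb1f (0.993), Hk3, a hexokinase of myeloid cells (0.992), and the integrin chain Itgam (0.992). Of the 8 genes themselves, Gpnmb (0.882) and Igsf6 (0.850) were least like the mean profile over the 12 arrays.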

How the data were processed

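Gene expression was measured on 12 Affymetrix mouse arrays, 3 per group. Each deposited value is an intensity, 1 signal per probe set on a linear scale, which the authors made with GCOS 1.2 per the submitters' processing notes. The mean of each array without its lowest and highest 2% was 100, as computed from the values, so arrays had been scaled. The sources used here give no other settings, and no detection calls were used.

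From 45101 probe sets, 64 array controls were left out. Of the rest, 34945 carried 1 symbol in the platform annotation, 932 several and 9160 none. Probe sets above the 40th percentile of their array on at least 3 of 12 arrays were kept (31762). All 14 of the 8 genes were among them. Gpnmb 1439345_at was above the array median on the MIY-ctrl arrays only, so it may have passed through the control group alone. Each probe set was tested singly on log2(signal + 16) in R 4.3.3 with lmFit, contrasts.fit and a trended eBayes from limma 3.58.1, with 4 group means from 12 arrays and 8 residual degrees of freedom. Adding 16 makes differences of dim genes smaller than their signal ratios. Two-sided p-values were adjusted (Benjamini and Hochberg) over all probe sets within each of 6 comparisons. With 3 arrays against 3, the smallest p of an exact test is 0.1, and precision is limited by how few arrays there are. The fit was tested on simulated data. Listed genes used the kept probe set of highest mean, without a set test.

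The 8 genes, the lists and the tests were chosen with earlier results of these data known. Named were all probe sets of the 8 genes, all listed transcription factors, per list up to 4 genes with the largest difference between MEIS1-WT and MIY-ctrl and up to 2 between M33-MEIS1 and MEIS1-deltaHD among those called, the called genes of small counts, and the 5 genes most like the 8. Alternatives changed the offset, filter, scaling, probe set rule, trend, replicate block and each array in turn. Promoter windows came from RefSeq (GRCm38.p6), which held all 8 genes.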

Additional observations from a re-analysis of the deposited data

How the results depend on the processing

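For the 14 probe sets of the 8 genes, 743 values against control under an alternative were within 1 SD of the replicates from the reported value and 79 moved. Between constructs 807 kept direction and call, 7 lost a call, 2 gained one and 6 changed sign. All 6 were the dim Lyz1 probe set 1450822_at, called nowhere. With 1 array left out it ranged from -0.280 to 0.061 between M33-MEIS1 and MEIS1-deltaHD (above 0 without M33-MEIS1 replicate 1 or MEIS1-deltaHD replicate 1), from -0.188 to 0.154 between M33-MEIS1 and MEIS1-WT (above 0 without M33-MEIS1 replicate 1 or MEIS1-WT replicate 3) and from -0.049 to 0.225 between MEIS1-deltaHD and MEIS1-WT (below 0 without MEIS1-deltaHD replicate 1 or MEIS1-WT replicate 2). The calls lost were F13a1 5 times and Tgfbi 1437463_x_at once (adjusted p = 0.0703 without the intensity trend) between M33-MEIS1 and MEIS1-deltaHD, and Gpnmb 1448303_at once between MEIS1-deltaHD and MEIS1-WT. Of 14 probe sets of the 8 genes, 7 to 9 were called between M33-MEIS1 and MEIS1-deltaHD with 1 array left out, and 4 of 8 with 1 probe set per gene, where fewer are tested.

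The number of probe sets called between M33-MEIS1 and MEIS1-deltaHD was 156, and 83 with no filter, 74 with median scaling, 37 with no intensity trend and 62 to 185 with 1 array left out (98 without M33-MEIS1 replicate 1, 65 without M33-MEIS1 replicate 3, 69 without MEIS1-deltaHD replicate 1, 62 without MEIS1-deltaHD replicate 2). Listed genes called there were 9, and 3 with median scaling, 3 with no intensity trend and 5 to 10 with 1 array left out. With no intensity trend 1166 probe sets were called between M33-MEIS1 and MEIS1-WT (1759 reported) and 792 between MEIS1-deltaHD and MEIS1-WT (1436 reported, 913 to 1638 with 1 array left out, the lowest without MEIS1-deltaHD replicate 1). With 1 probe set per gene, where fewer are tested, 6546 were called between MEIS1-WT and MIY-ctrl (9824 reported). Beyond tests on fewer features or arrays, the cause of these moves was not tested.

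The groups share replicate numbers. Deviations of same-numbered arrays from their group means correlated at -0.0472 to 0.0278 over 18 pairs, 0 of them above 0.1, and 1 of 12 arrays correlated best with its own number, so the numbers are not taken to pair the samples. With the replicate number as a block, 152 probe sets were called between M33-MEIS1 and MEIS1-deltaHD, 1655 between M33-MEIS1 and MEIS1-WT and 1363 between MEIS1-deltaHD and MEIS1-WT, and the calls of the 8 genes stayed at 8, 12 and 12 of 14. Signals near the array median, as of most MEIS1-WT values of Tgfbi and Gpnmb, limit how small a share of control can be measured.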
